A study of Mus musculus with 8 samples.

Results

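Transcripts of 6 genes that encode the receptors for immunoglobulin G (IgG) and their shared signaling chain were measured by bulk RNA-seq in macrophages of epididymal white adipose tissue (eWAT). The 6 genes were chosen by name, as the mouse Fc gamma receptors Fcgr1, Fcgr2b, Fcgr3 and Fcgr4, the FcR gamma chain Fcer1g and the neonatal Fc receptor Fcgrt, out of 18040 genes listed in the tables of either diet. All 6 were listed in both tables (17740 genes for HFD and 16436 for ND) and all 6 passed the filter on low counts. Adhesion-related macrophages (ARMs) were sorted from the adipocyte layer after the adipocytes had been broken with beads, and macrophages of the stromal vascular fraction (SMs, named NARM in the labels) from the pellet of the same digestion. There were 4 groups of 2 libraries, HFD ARM, HFD SM, ND ARM and ND SM, all from wild-type mice, and the methods give male C57BL/6J mice put on their diet at 6 weeks of age. The HFD mice received the diet D12492 for 8 weeks and the ND mice a diet labelled chow. Each HFD library pooled 6 mice and each ND library pooled 10, so the spread between 2 libraries is that between pools and not between animals. Before sorting, the cells were incubated with an antibody to CD16/32, the proteins of Fcgr3 and Fcgr2b, to block these receptors on the cell surface, and this step was shared by ARMs and SMs.

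Fc gamma receptors bind the constant part of IgG and let a macrophage take up antibody-coated particles and immune complexes. The receptors of Fcgr1, Fcgr3 and Fcgr4 are activating. They reach the surface and signal together with the FcR gamma chain of Fcer1g, whose ITAM motif recruits the kinase Syk after phosphorylation by Src family kinases. The receptor of Fcgr2b is the inhibitory one, with an ITIM motif that recruits the phosphatase SHIP1. FcRn, made of the Fcgrt product and beta-2 microglobulin, binds IgG and albumin in acidic endosomes and returns them to the surface or the blood instead of the lysosome.

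The genes were located in the mouse assembly GRCm38, the build named mm10 in the submitters' processing notes. Fcgr2b (chr1:170960558-170976071, minus strand), Fcgr4 (chr1:171018926-171029761, plus strand) and Fcgr3 (chr1:171051169-171065915, minus strand) were neighbours, with Fcgr4 between the other two. Fcer1g (chr1:171229572-171234349, minus strand) was on the same chromosome. Fcgr1 (chr3:96282909-96293969) and Fcgrt (chr7:45092993-45103822), both on the minus strand, were elsewhere. Fcgr2b and Fcgr3 shared a coding stretch of 129 bases without a mismatch, printed here because reads that lie wholly within it match both genes. It spans 2 coding exons in each, at chr1:170966674-170968081 in Fcgr2b (coding bases 278 to 406) and chr1:171054167-171057792 in Fcgr3 (coding bases 263 to 391), and reads as follows on the strand of the genes.
Fcgr2b and Fcgr3 coding stretch: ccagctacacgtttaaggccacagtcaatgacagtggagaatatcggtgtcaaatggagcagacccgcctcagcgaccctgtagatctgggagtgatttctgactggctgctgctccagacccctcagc
Of all windows of 50 bases in the coding sequence, 17.1% of those of Fcgr2b also occurred in Fcgr3 and 22.1% of those of Fcgr3 in Fcgr2b. No window of 50 bases was shared between any other pair of the 6 genes. The deposited counts showed the same pair. The count of Fcgr2b was whole in 2 of 8 libraries only (both of ND SM), whereas the sum of Fcgr2b and Fcgr3 was whole, to within 0.01 reads, in 8 of 8. In the first HFD ARM library, for example, 13405.26 reads were given to Fcgr2b and 14156.74 to Fcgr3, together 27562. Reads had therefore been divided between these genes, and their separate levels depend on how that was done.

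The 250 bases before the annotated start of Fcgr4 and Fcgr1 are shown from RefSeq (GRCm38.p6), since these activating receptors had the ARM-to-SM differences that varied most with diet. Windows that run to 50 bases after the start were searched on both strands, and matches are in capitals. The letters were GAGGAA (a longer form of GGAA, the core of the ETS family factors, which include PU.1) and TTCNNNGAA (the STAT element GAS). The others were 2 copies of GAAA set 2 bases apart (the interferon element ISRE) and TGANTCA (AP-1). The shorter GGAA was not counted as a match, so an ETS match below means GAGGAA only.
Fcgr4 upstream: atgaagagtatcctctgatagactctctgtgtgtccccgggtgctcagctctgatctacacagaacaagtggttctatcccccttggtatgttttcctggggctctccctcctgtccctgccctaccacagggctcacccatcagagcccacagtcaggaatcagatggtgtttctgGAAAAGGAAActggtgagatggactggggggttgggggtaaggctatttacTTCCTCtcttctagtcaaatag
Fcgr1 upstream: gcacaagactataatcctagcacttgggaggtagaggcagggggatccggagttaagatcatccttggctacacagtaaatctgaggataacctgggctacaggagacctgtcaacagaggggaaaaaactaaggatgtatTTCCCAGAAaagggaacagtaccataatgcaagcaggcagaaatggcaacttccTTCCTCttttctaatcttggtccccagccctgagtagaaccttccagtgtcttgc
In Fcgr4 the capitals mark an ISRE match that begins at position -73 and an ETS match at position -22, counted from the start. In Fcgr1 they mark a GAS match at -109 and an ETS match at -55. Fcgr3 held an ETS match at -6 in a window at chr1:171059354-171059653, which lies inside the gene as located above, since the RefSeq start used was a downstream one. The windows of Fcgr2b, Fcer1g and Fcgrt held none of these letters, although the shorter GGAA occurs before the start of each. None of the matches overlapped. Of 27025 promoter windows of 300 bases (250 before to 50 after the start), 28.3% held GAGGAA, 8.47% GAS, 3.49% ISRE and 7.93% AP-1. These are matches of letters, and binding was not measured here.

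The libraries held 18288775 to 19040133 counts for HFD and 14508824 to 16319038 for ND. Macrophage markers were high everywhere, with 8 genes including Adgre1, Csf1r and Lyz2 summing to 17594 to 18608 TPM for HFD and 20864 to 22504 TPM for ND (TPM is the share of a gene's transcripts in a library, corrected for length and depth). None of the 8 passed the test between ARM and SM in either diet by edgeR, although 3 in HFD and 2 in ND had an unadjusted p under 0.05 and 1 passed in each diet by DESeq2. Genes of other cells did move with ARM: all 7 adipocyte markers were higher in ARMs of both diets (904 to 1021 TPM in sum against 233 to 316 TPM in HFD, 419 to 646 TPM against 218 to 311 TPM in ND). Most of each sum was Fabp4, which the paper also measured in sorted ARMs and SMs as a lipid transport gene of these macrophages. In HFD it stood at 769 and 879 TPM in ARMs against 296 and 212 TPM in SMs. In ND it stood at 287 and 414 TPM against 162 and 245 TPM. Endothelial markers passed for 5 of 6 genes in HFD (64.7 to 67.7 TPM against 20.5 to 29.7 TPM) and 1 of 6 in ND (Tek), and fibroblast markers for 4 of 5 in HFD (297 to 365 TPM against 193 to 217 TPM) and 5 of 5 in ND (392 to 571 TPM against 130 to 186 TPM). Other lists moved in part or downwards. Of the 5 lymphatic markers, Mmrn1 and Reln were higher in both diets and Ccl21a in ND, while Lyve1, which macrophages also express, was lower in HFD ARMs (983 and 847 TPM against 1389 and 1324 TPM, log2 fold change -0.58, adjusted p = 0.0013 by edgeR). The summed lymphatic level was 859 to 992 TPM in HFD ARMs against 1332 to 1391 TPM in SMs and 1218 to 1323 TPM against 1306 to 1491 TPM in ND. The dendritic cell marker Cd209a was lower in HFD ARMs (-0.48, adjusted p = 0.001 by edgeR), with a summed level of its 5 genes of 161 to 163 TPM against 218 to 228 TPM. Of 7 neutrophil markers, S100a9 was lower in ND ARMs (14.5 and 38.2 TPM against 76.7 and 58.9 TPM, -1.43, adjusted p = 0.012 by edgeR), and in HFD its log2 fold change of 0.87 did not pass. The part of these cells' RNA in the results below was not tested. In bulk libraries, fewer cells with a transcript and less of it per cell cannot be told apart.

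Fcer1g was the most abundant of the 6 transcripts and Fcgr4 the least in every library. In TPM, which allows genes of different length to be compared, the group means were 2190 to 2659 TPM for Fcer1g, 1157 to 1540 TPM for Fcgrt, 1104 to 1247 TPM for Fcgr2b, 1191 to 1234 TPM for Fcgr3, 59.9 to 95.4 TPM for Fcgr1 and 13.7 to 30.9 TPM for Fcgr4. The ranges of Fcgr2b and Fcgr3 overlapped in HFD SMs and in both ND groups, so their order was fixed only in HFD ARMs, where Fcgr3 was higher. Fcgrt exceeded both of them in HFD SMs and ND SMs. Among the 4 Fc gamma receptors, Fcgr2b took 45.8% to 50.5% of the summed TPM, Fcgr3 45.1% to 50.3%, Fcgr1 2.29% to 3.86% and Fcgr4 0.517% to 1.34%.

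**Figure D1:**
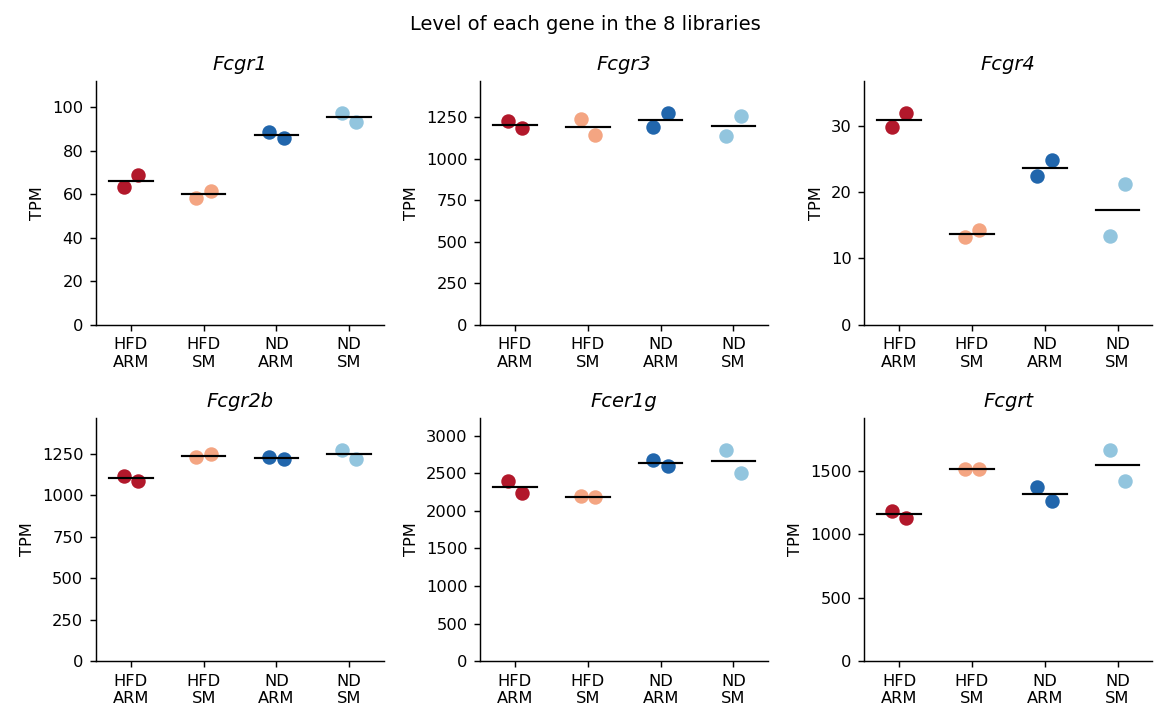
Levels of the 6 genes in TPM (vertical axes, each from 0) in the 4 groups. Each point is a library and each line the mean of 2 libraries. Fcgr4 is higher in both HFD ARM libraries (29.8 and 32.0 TPM) than in every other library, and Fcgrt is lower in ARMs than in SMs of either diet.

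In HFD mice, 1 of the 6 genes rose in ARMs by over 1.5-fold and a second one fell by less than that. Fcgr4 was 2.24-fold higher in ARMs than in SMs and Fcgrt was 0.76 times its SM level, while Fcgr1, Fcgr2b, Fcgr3 and Fcer1g did not pass the test. Each diet was fitted by itself with edgeR's quasi-likelihood test on the counts, p-values were adjusted over all genes by Benjamini-Hochberg, and a gene passed at an adjusted p under 0.05. Of the 13337 genes tested in HFD mice, 9.55% passed, and 4.46% were higher in ARMs with a fold change over 1.5, against 2 and 1 of the 6 genes. Besides, 3 of the 6 (Fcgr2b, Fcgr4 and Fcgrt) had an unadjusted p under 0.05, as 23.2% of all genes had. In ND mice 4.73% of 12441 genes passed and none of the 6 did by edgeR, although 2 (Fcgr4 and Fcgrt) had an unadjusted p under 0.05, as 14.9% of all genes had. No member passed by DESeq2 in ND mice either. With the replicate number as a block, Fcgr4 and Fcgrt did pass in ND mice (adjusted p = 0.037 and 0.0208 by edgeR). The labels do not say that these numbers pair samples. An exact permutation test of 2 libraries against 2 cannot give a p under 0.333, so these p-values rest on a spread estimated across all genes.

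The activating receptor Fcgr4, which in mice binds IgG2 subclasses, showed the largest difference of the 6. Its level in HFD mice was 29.8 and 32.0 TPM in ARMs (316 and 340 counts) against 13.2 and 14.3 TPM in SMs (144 and 154 counts), so that the groups lay far apart. The log2 fold change was 1.16 (SE 0.11, 95% interval 0.92 to 1.40, adjusted p = 0.000152 by edgeR). In ND mice it was 22.5 and 24.8 TPM in ARMs against 13.4 and 21.2 TPM in SMs. Both ND ARM libraries again exceeded both SM libraries, but the SM libraries differed from each other by more than the upper one did from the ARMs. The ND log2 fold change was 0.42 (SE 0.19, 95% interval 0.01 to 0.83, adjusted p = 0.321 by edgeR). It was 0.14 without the first ND SM library and 0.77 without the second, where it reached the threshold (adjusted p = 0.05), so the ND SM libraries decide its size. The HFD change stayed at 1.07 to 1.21 under 15 other settings and passed in all but 1 of them. The HFD change exceeded the ND change by 0.73 on the log2 scale (SE 0.24, 95% interval 0.21 to 1.24, unadjusted p = 0.0092), which did not pass over 13358 genes (adjusted p = 0.358 by edgeR).

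Beside Fcgr4, the genes of the monocyte list moved in part. Cx3cr1 and Ace, known from patrolling monocytes, were higher in ARMs of both diets (log2 fold change of 0.80 and 0.54 in HFD, adjusted p = 0.0067 and 0.021 by edgeR, and 0.59 and 1.14 in ND, adjusted p = 0.02 and 0.0031). Their calls were lost in HFD without the second ARM library (adjusted p = 0.136 for Cx3cr1), for Ace also without the first ARM or the second SM library (adjusted p = 0.058 to 0.191), and in ND without the second ARM library (adjusted p = 0.0505 for Ace), for Cx3cr1 also without the first SM library (adjusted p = 0.243 to 0.247). Cx3cr1 stood at 14.4 and 18.2 TPM in HFD ARMs and at 7.67 and 10.6 TPM in HFD SMs. The other 5 of the 7 genes did not pass in either diet, and Ly6c2, a marker of classical monocytes, was at 1.72 to 5.69 TPM in all libraries. Nr4a1, which made up most of the list's summed level, was at 348 and 379 TPM in HFD ARMs against 398 and 422 TPM in HFD SMs. Its log2 fold change was -0.18 in HFD and 0.06 in ND. The summed level of the 7 genes was 435 to 482 TPM in HFD ARMs against 473 to 503 TPM in HFD SMs, and 640 to 682 TPM against 632 to 634 TPM in ND. Their part in the Fcgr4 difference was not tested.

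Fcgrt, the heavy chain of FcRn, was lower in ARMs. In HFD mice it measured 1184 and 1130 TPM in ARMs against 1515 and 1515 TPM in SMs, with no overlap. The log2 fold change was -0.40 (SE 0.06, 95% interval -0.53 to -0.27, adjusted p = 0.00239 by edgeR), below the 1.5-fold limit. It missed the threshold without the second HFD ARM library (log2 fold change -0.36, adjusted p = 0.0827). In ND mice Fcgrt measured 1372 and 1261 TPM in ARMs against 1665 and 1416 TPM in SMs, again without overlap. The ND log2 fold change was -0.26 (SE 0.11, 95% interval -0.49 to -0.02, adjusted p = 0.268 by edgeR), and without the first ND SM library it was -0.12. The difference between diets in this change did not pass the test (difference -0.16, 95% interval -0.44 to 0.12, adjusted p = 0.891 by edgeR). B2m, the light chain of FcRn, was at 4371 to 4860 TPM in HFD and 4037 to 4401 TPM in ND, with log2 fold changes of -0.09 and 0.02 that did not pass.

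Fcgr1, the high-affinity receptor for monomeric IgG, differed in opposite directions in the 2 diets without passing in either. It measured 63.2 and 68.6 TPM in HFD ARMs against 58.2 and 61.6 TPM in HFD SMs, and 88.6 and 85.6 TPM in ND ARMs against 97.4 and 93.4 TPM in ND SMs. Both ARM libraries were thus above both SM libraries in HFD and below them in ND. The log2 fold changes were 0.13 (95% interval -0.02 to 0.28) and -0.16 (95% interval -0.36 to 0.04), with adjusted p = 0.308 and 0.508 by edgeR. Their difference of 0.27 (SE 0.11, unadjusted p = 0.03) had an adjusted p of 0.578 by edgeR.

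The inhibitory receptor Fcgr2b measured 1118 and 1090 TPM in HFD ARMs against 1234 and 1247 TPM in HFD SMs, and 1232 and 1221 TPM in ND ARMs against 1277 and 1218 TPM in ND SMs. The HFD groups did not overlap and the ND groups did. The log2 fold change was -0.18 in HFD (SE 0.06, 95% interval -0.31 to -0.05, unadjusted p = 0.012, adjusted p = 0.0897 by edgeR) and -0.06 in ND (95% interval -0.26 to 0.15, adjusted p = 0.869). Fcgr3, the low-affinity activating receptor that binds immune complexes, measured 1227 and 1187 TPM in HFD ARMs against 1239 and 1144 TPM in HFD SMs, and 1190 and 1278 TPM in ND ARMs against 1138 and 1261 TPM in ND SMs. The groups overlapped in either diet, and the log2 fold change was 0.01 in each (95% interval -0.14 to 0.15 in HFD and -0.20 to 0.22 in ND). With the reads of the pair summed, so that their division no longer mattered, the log2 fold change was -0.08 in HFD (95% interval -0.22 to 0.05, adjusted p = 0.449 by edgeR) and -0.01 in ND (95% interval -0.22 to 0.20).

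Fcer1g, the chain that the activating receptors share, measured 2391 and 2230 TPM in HFD ARMs against 2202 and 2178 TPM in HFD SMs. In ND it measured 2681 and 2594 TPM in ARMs against 2814 and 2504 TPM in SMs. The HFD groups were just apart in TPM but overlapped in TMM-normalized counts scaled to library size (CPM), and the ND groups overlapped in both. The log2 fold changes were 0.07 (95% interval -0.07 to 0.21) and -0.05 (95% interval -0.27 to 0.17), so a change of the size seen for Fcgr4 in HFD mice lay outside both intervals.

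By TMM-normalized counts, both ARM libraries were above both SM libraries for 2 of the 6 genes in HFD (Fcgr1 and Fcgr4) and below for 2 (Fcgr2b and Fcgrt). Over all genes tested, 26.2% were above and 26.5% below in this way. In ND mice it was 1 gene above (Fcgr4) and 2 below (Fcgr1 and Fcgrt), with 21.2% and 22.8% over all genes. Such separation is thus common among all genes of these libraries. In the test of the difference between diets none of the 6 passed by edgeR or DESeq2, where 0.165% of all genes did by edgeR, and 2 (Fcgr1 and Fcgr4) had an unadjusted p under 0.05, as 7.61% of all genes had.

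**Figure D2:**
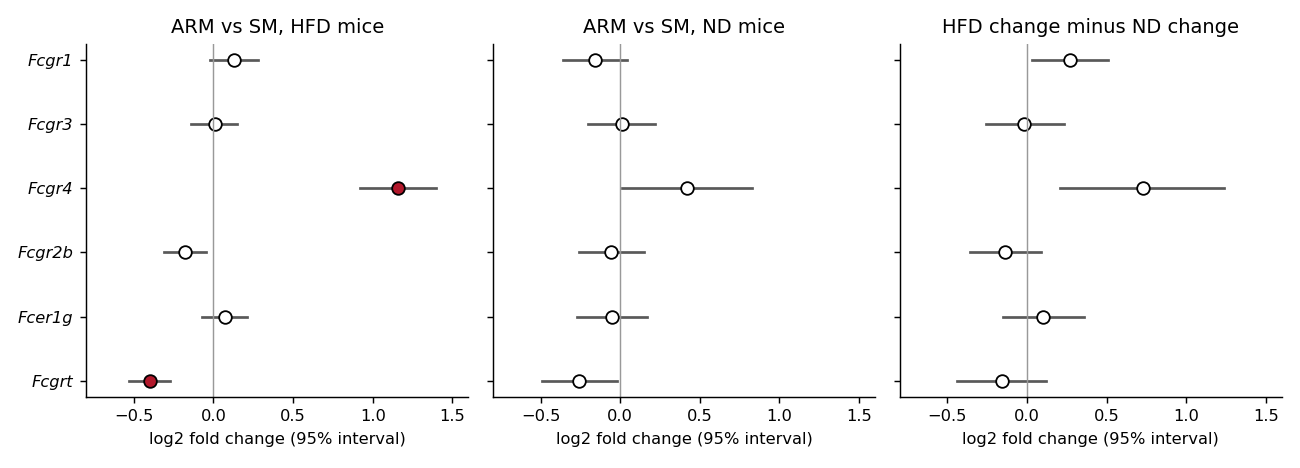
Log2 fold change of the 6 genes (horizontal axis) between ARMs and SMs in HFD mice, in ND mice, and the HFD change minus the ND change, from edgeR. Points are estimates, lines 95% intervals, and filled points passed at an adjusted p under 0.05. Fcgr4 (1.16) and Fcgrt (-0.40) passed in HFD mice and none passed in the other two panels.

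The balance of activating and inhibitory receptor transcripts was taken as the ratio of Fcgr1, Fcgr3 and Fcgr4 together to Fcgr2b, in TPM, without a test. It was 1.18 in both HFD ARM libraries against 1.06 and 0.978 in HFD SMs, so the HFD groups did not overlap. In ND it was 1.06 and 1.14 in ARMs against 0.978 and 1.13 in SMs, with overlap. The ARM mean over the SM mean was 1.16 ± 0.068 in HFD and 1.04 ± 0.12 in ND (SD from 2 and 2 libraries). Nearly all of this ratio comes from Fcgr3 and Fcgr2b, whose reads were divided between them, and Fcgr4 added at most 1.34% of the summed TPM. Per 1000 TPM of Fcgr3, Fcgr4 stood at 24.3 and 26.9 TPM in HFD ARMs and at 10.6 and 12.5 TPM in HFD SMs, and at 18.9 and 19.4 TPM in ND ARMs and at 11.7 and 16.8 TPM in ND SMs. In both diets the ARM libraries were the higher ones. Fcer1g stood at 1.68 to 1.81 times the summed activating receptors in HFD and at 1.82 to 2.25 times in ND, and ARMs and SMs overlapped within each diet.

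**Figure D3:**
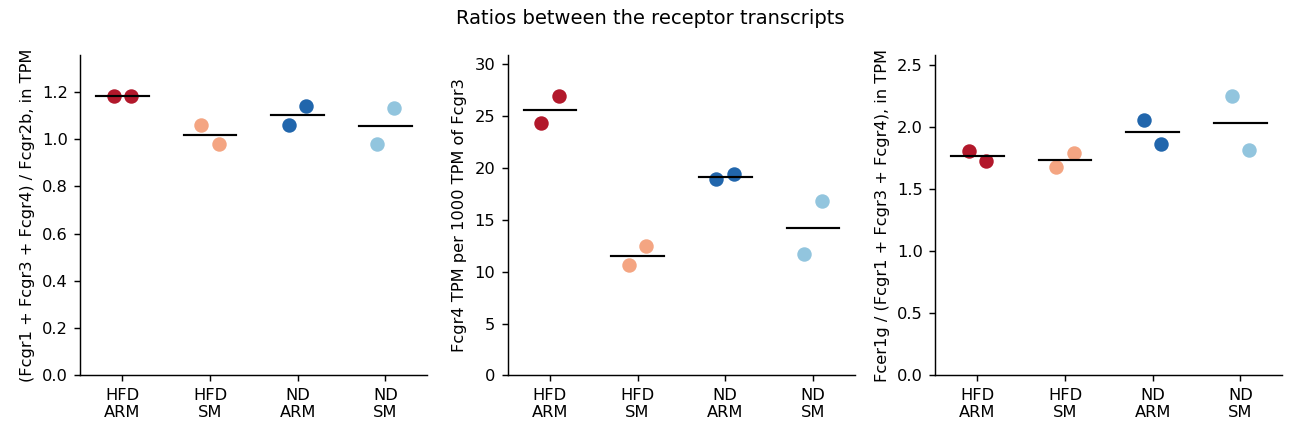
Ratios between receptor transcripts in TPM (vertical axes, from 0) for each library (points) with the mean of 2 libraries (lines). From left, activating over inhibitory receptors, Fcgr4 per 1000 TPM of Fcgr3, and Fcer1g over the activating receptors. Only the first 2 panels show HFD ARMs apart from HFD SMs (1.18 against at most 1.06, and at least 24.3 against at most 12.5).

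Between the diets the levels are given as values, because the HFD and ND tables differed in ways that go with diet. The gene length implied by FPKM was longer in the HFD table for each of the 6 genes, from 1.06 times for Fcgr1 to 1.24 times for Fcer1g, the shortest, so diet and table cannot be told apart, and the cause was not tested. Fcgr1 was lower in HFD than in ND on every scale, by log2 ratios of -0.43 ± 0.10 in ARMs and -0.75 ± 0.08 in SMs in FPKM and of -0.34 ± 0.08 and -0.61 ± 0.08 in CPM (SD from 2 and 2 libraries). Its HFD and ND libraries did not overlap on any of the 3 scales. The share of all genes that lay apart in this way between diets was not computed. Fcgr4 was higher in HFD ARMs than in ND ARMs, by 0.36 ± 0.12 in FPKM and 0.53 ± 0.11 in CPM, also without overlap. In SMs its ratio was -0.40 ± 0.44 in FPKM and -0.19 ± 0.44 in CPM, within the spread. The direction of Fcer1g turned with the scale in ARMs, from -0.22 ± 0.07 in FPKM to 0.11 ± 0.09 in CPM, and in SMs it went from -0.36 ± 0.14 to 0.00 ± 0.14. In FPKM and TPM its HFD libraries lay below its ND libraries without overlap in both cell types. Those of Fcgr2b and Fcgrt did so in ARMs. In CPM, the HFD libraries instead lay above the ND libraries without overlap for Fcer1g and Fcgr3 in ARMs and for Fcgr2b in SMs. In FPKM alone, the HFD libraries of Fcgr2b and Fcgr4 in SMs lay below the ND ones. Separation between diets in these cases thus depended on the scale. For Fcgr2b, Fcgr3 and Fcgrt, the ratios were between -0.21 and 0.11 on all 3 scales. They changed sign between FPKM and CPM for Fcgr3 in both cell types and for Fcgr2b and Fcgrt in SMs.

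**Figure D4:**
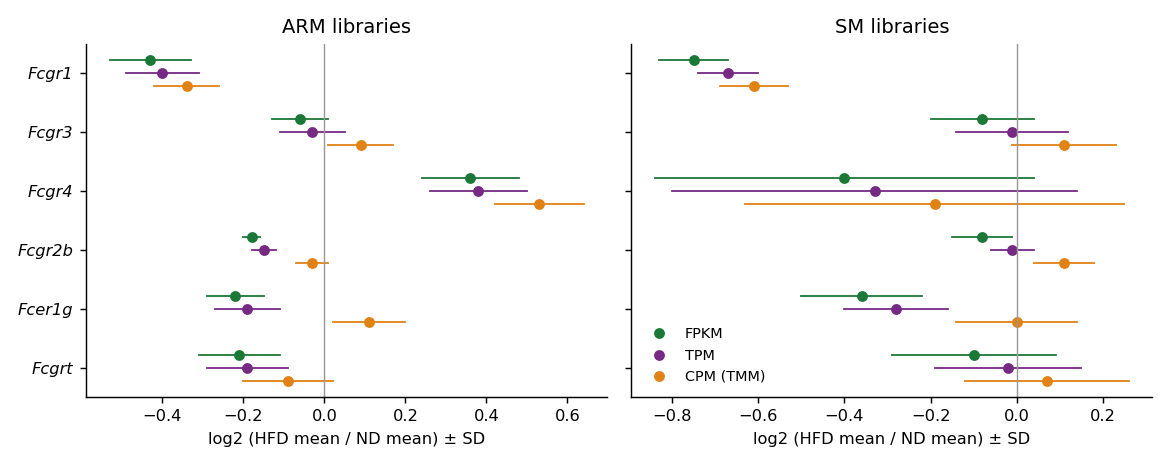
Log2 ratio of the HFD mean to the ND mean (horizontal axis) for each gene in ARMs and in SMs, in FPKM, TPM and TMM-normalized CPM. Lines are ± SD from 2 and 2 libraries. Fcgr1 lies below 0 on each scale (-0.75 to -0.34), while Fcer1g in ARMs moves from -0.22 (FPKM) to 0.11 (CPM).

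The genes whose pattern was most like that of each receptor were found by Pearson correlation of log2(TPM + 1), less the mean of its diet, over the 8 libraries among 7473 genes. These libraries share sorts and depth, so r is a description. For Fcgr4 they were Asph (r = 0.978), the chemokine gene Ccl12 (r = 0.976) and Tmem206 (r = 0.975), with Ccl12 at a log2 fold change of 0.59 in HFD and 0.13 in ND. For Fcgrt they were Arhgef3 (r = 0.991), the clock gene Arntl (r = 0.986) and Rxylt1 (r = 0.985). For Fcgr2b they were Arhgap23 (r = 0.987), the complement gene C4b (r = 0.983) and Ltc4s, the leukotriene C4 synthase (r = 0.982). The patterns of Fcgr4 and Fcgrt were opposite to each other (r = -0.99), those of Fcgr4 and Fcgr2b likewise (r = -0.96). Fcgr2b and Fcgrt ran together (r = 0.92). With the diet means taken off, these values largely restate the ARM-to-SM differences given above. How common such values are over all pairs of genes was not computed. Fcgr1 was most like Tax1bp3 (r = 0.967) and the RNA polymerase II subunits Polr2g (r = 0.959) and Polr2j (r = 0.954). Fcgr3 was most like Mettl7a1 (r = 0.978), Ubxn2a (r = 0.970) and Rnf180 (r = 0.952), and Fcer1g was most like Fuca2 (r = 0.946), Hmg20b (r = 0.923) and Lypla2 (r = 0.917). For Fcgr3 and Fcer1g, whose changes were near 0, likeness rests on differences between replicate libraries.

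The partners of these receptors were followed in lists of genes. Of 12 genes for immunoglobulin chains, only Jchain was listed in these tables, at 0.42 to 4.45 TPM, and it did not pass. The IgG chains were not listed, so their levels are not known here. Of 12 other Fc receptors, including those for IgE, IgM and IgA, 4 were tested in HFD and 2 in ND and none passed by edgeR or DESeq2, with an unadjusted p under 0.05 for 0 and 2 of them by edgeR. Trim21, the cytosolic antibody receptor, had the highest level of these at 6.13 to 7.50 TPM in HFD and 13.0 to 17.1 TPM in ND. The IgE receptor genes Fcer1a and Ms4a2, which mark mast cells and basophils, were at 0.00 to 0.47 TPM. Of all genes tested, 9.55% passed in HFD and 4.73% in ND, split into 6.53% higher and 3.02% lower in HFD and 4.28% higher and 0.458% lower in ND. The median over all genes was -0.01 and -0.02 on the log2 scale, and the following counts stand beside these. In HFD they depend on the filter, since without a filter on low counts Pecam1 alone passed among the genes of the 5 lists with HFD calls.

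Among the ITAM adaptors and proximal kinases, 3 of 12 rose and 1 fell in HFD by edgeR, with a median of 0.09, and none of 10 passed in ND by edgeR or DESeq2 (median 0.08, 2 with an unadjusted p under 0.05 by edgeR). By DESeq2, 0 of the 12 passed in HFD, where 5 had an unadjusted p under 0.05 by edgeR. The adaptor Tyrobp, which carries an ITAM like Fcer1g, was at 1327 to 1510 TPM, and its log2 fold changes of 0.09 and -0.10 did not pass. Syk (0.05 lower in HFD and 0.06 higher in ND on the log2 scale) and Lyn (0.08 and 0.10) did not pass either. Of the Src family kinases, which start ITAM signaling, Src rose by 0.74 and Yes1 by 1.35 in HFD (adjusted p = 0.016 and 0.029 by edgeR), both at low levels of under 5 TPM. Fyn (0.33) and Tec (-0.25), named after their values were seen, also passed in HFD. Fgr, at 0.49 in HFD, did not pass (adjusted p = 0.073 by edgeR), but did without the second HFD SM library (adjusted p = 0.00358). The 4 HFD calls were each lost without either HFD ARM library, and those of Src and Fyn also without the first and those of Yes1 and Tec without the second HFD SM library (adjusted p = 0.0512 to 0.314 by edgeR). In ND, Src (0.77) passed without a filter on low counts (adjusted p = 0.0408) and without the first ARM library (adjusted p = 0.046).

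None of the 11 inhibitory phosphatases and adaptors passed in either diet by edgeR or DESeq2, with medians of 0.01 in HFD and -0.04 in ND and 1 gene in each diet at an unadjusted p under 0.05 by edgeR. Inpp5d, which encodes SHIP1, had log2 fold changes of 0.06 and 0.11, and Ptpn6, which encodes SHP1, 0.01 and -0.12. Among 15 other receptors listed as inhibitory with an ITIM, 8 rose and 1 fell in HFD (median 0.28). Siglec1, on this list, has no ITIM, and its log2 fold changes of 0.04 in HFD and 0.06 in ND did not pass. In ND none of the 15 passed by edgeR or DESeq2 (median 0.14, 4 with an unadjusted p under 0.05 by edgeR). The 3 that rose by over 1.5-fold were Cd72 (0.62, adjusted p = 0.015 by edgeR), Cd22 (1.03, adjusted p = 0.0083) and Pecam1 (1.52, adjusted p = 0.00013). The one that fell was Ceacam1 (-0.33), named after its values were seen. Of the 15 genes, 2 (Cd22 and Pecam1) passed without the first HFD ARM library, 1 (Pecam1) without the second, 7 without the first HFD SM library and 4 without the second. The calls of the other 5 genes that rose (Lilrb4a, Sirpa, Cd300a, Clec4a2 and Siglece, 0.21 to 0.34, named after their values were seen) were each lost without either HFD ARM library or the second HFD SM library, and those of Lilrb4a and Sirpa also without the first (adjusted p = 0.0504 to 0.377 by edgeR). Clec4a2 and Siglece did not pass by DESeq2 (adjusted p = 0.0695 and 0.0988). Pecam1 passed whichever library was left out, Cd22 not without the second HFD ARM library (adjusted p = 0.13), Cd72 not without either HFD ARM library (adjusted p = 0.0568 and 0.239) and Ceacam1 not without either of these or the second HFD SM library (adjusted p = 0.0788 to 0.361). In ND, Cd22 (0.93) and Pecam1 (0.78) passed without a filter on low counts (adjusted p = 0.0182 and 0.00791) and without the first ARM library (adjusted p = 0.0209 and 0.00577). Cd72 and Cd22 are known from B cells and Pecam1 from endothelium, and Cd22 and Pecam1 also stood on the marker lists of those cells. The B cell list summed to 13.4 to 14.7 TPM in HFD ARMs and 10.3 to 10.7 TPM in HFD SMs, and the endothelial sums are given above. Their part in these counts was not tested.

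Of 9 receptors other than Fc receptors that also pair with Fcer1g, 6 were tested, and 4 rose in HFD and 3 in ND. The median was 0.41 in each diet and all 6 were above 0 in both. Clec4d, a C-type lectin of the Dectin-2 cluster, measured 45.8 and 43.9 TPM in HFD ARMs against 37.4 and 30.5 TPM in SMs, and 95.2 and 89.9 TPM in ND ARMs against at most 60 TPM in SMs. Its log2 fold changes were 0.39 and 0.61 (adjusted p = 0.042 and 0.0032 by edgeR), and the HFD call was lost by DESeq2 (adjusted p = 0.124). Cd300c2 measured 65.4 and 74.4 TPM against 46.4 and 44.9 TPM in HFD and 56.7 and 65.2 TPM against 35.5 and 45.5 TPM in ND (0.61 and 0.56, adjusted p = 0.0017 and 0.031 by edgeR), and its ND call was lost by DESeq2 (adjusted p = 0.0803). The groups did not overlap for either gene. Clec4n, which encodes Dectin-2, rose by 0.70 in HFD (adjusted p = 0.01 by edgeR) and had a log2 fold change of 0.12 in ND that did not pass. Clec4e, which encodes the glycolipid receptor Mincle and is named here after its values were seen, rose by 0.42 and 0.55 (adjusted p = 0.0059 and 0.004 by edgeR). Without the second HFD ARM library none of the 4 passed in HFD (adjusted p = 0.0618 for Cd300c2 and 0.118 for Clec4e), Clec4n and Clec4d did not pass without the first one either (adjusted p = 0.153 and 0.284), nor Clec4d without the second HFD SM library (adjusted p = 0.149). In ND, Cd300c2 did not pass without the second ARM or the first SM library (adjusted p = 0.308 and 0.392), while Clec4d and Clec4e passed whichever library was left out. Fcer1g itself, the chain they share, did not pass in either diet.

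Of 80 effectors of Fc gamma receptor phagocytosis, from phosphoinositide 3-kinases to the Arp2/3 complex, most did not pass. In HFD 5 of 76 tested rose and 1 fell, with a median of 0.00, and in ND 3 of 75 rose and none fell, with a median of 0.03. The actin-severing protein gene Gsn rose in both diets, by 0.48 in HFD (389 and 434 TPM against 286 and 299 TPM) and by 1.10 in ND (415 and 649 TPM against 219 and 269 TPM). The lipid phosphatase gene Plpp3 rose by 0.64 and 1.5. Both genes are also expressed by fibroblasts and adipocytes, whose markers were higher in ARMs, and the part of those cells was not tested. The unconventional myosin gene Myo10 rose by 0.73 in HFD and had a log2 fold change of 0.26 in ND that did not pass. Lat2 (0.54), Pik3cb (0.41) and Ncf1 (-0.24), named after their values were seen, also passed in HFD. Without the second HFD ARM library none of these 6 passed in HFD (adjusted p = 0.0586 for Gsn and 0.339 for Lat2), and Plpp3, Myo10, Pik3cb and Ncf1 did not without the first one either. Pik3cb was lost also without the first HFD SM library and by DESeq2 (adjusted p = 0.092), and Ncf1 without the second HFD SM library. In ND, 5 effectors passed without the first ARM library. Sphk1, a sphingosine kinase, measured 31.9 and 32.1 TPM in ND ARMs against 15.2 and 15.6 TPM in ND SMs, and 30.7 to 33.4 TPM in all 4 HFD libraries. It rose by 0.96 in ND (adjusted p = 0.00033 by edgeR) and its log2 fold change was -0.03 in HFD. Its change was 1.01 smaller in HFD than in ND on the log2 scale (adjusted p = 0.0082 by edgeR), with a difference of -1.02 to -0.96 over the 8 left-out libraries. The adjusted p was 0.0669 to 0.0785 where either HFD ARM library or either ND SM library was left out. Of the 12 genes for the partner and trafficking of FcRn, 1 fell in HFD (Rab11fip5, by 0.30, named after its values were seen, and lost without either HFD ARM library at adjusted p = 0.123 and 0.178 by edgeR) and none passed in ND by edgeR or DESeq2 (1 with an unadjusted p under 0.05 by edgeR), with medians of -0.11 and -0.04. By DESeq2, 2 of these genes passed in HFD, and 4 did by edgeR without the second HFD SM library. In ND, 1 passed without the first ARM library.

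**Figure D5:**
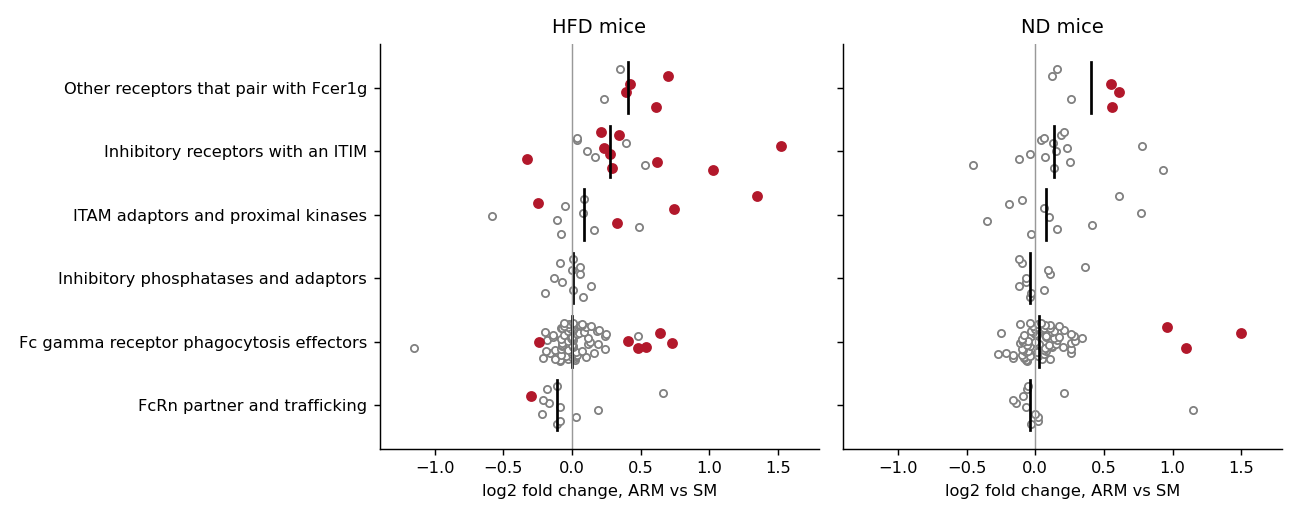
Log2 fold change between ARMs and SMs (horizontal axis) for each gene tested in 6 lists, in HFD and in ND mice. Each point is a gene, filled where it passed at an adjusted p under 0.05 by edgeR, and each vertical line is the list's median. The receptors that pair with Fcer1g lie right of 0 in both diets (median 0.41), while the inhibitory phosphatases lie around 0.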

How the data were processed

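Bulk RNA-seq of 8 sorted macrophage libraries was used. Per the file headers the authors deposited, for each diet, an estimated (expected) count, FPKM and TPM for every gene and library. The labels name the build mm10, and the aligner, counting program and annotation are not given in the sources used here. Columns that hold the authors' means and comparisons were not used.

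Counts were rounded and fitted per diet with edgeR 4.0.16 (R 4.3.3; filterByExpr, TMM, quasi-likelihood test, Benjamini-Hochberg over all genes). A second fit of all 8 libraries, over genes in both tables, tested the difference between diets. A gene passed at an adjusted p under 0.05, and a call in the text means such a pass at any fold change. A fold change over 1.5 is stated where it was also required. The error of a fold change is |log2 fold change| divided by the root of F. TPM was used for levels between genes, FPKM, TPM and CPM between diets. The pipeline was tested on simulated data. The estimated counts deposited for HFD were not whole in 32.3% to 32.9% of genes, those for ND in 8.55% to 9.36%. Levels were therefore not tested between diets. The test of the difference between diets compares ARM-to-SM changes across these unlike deposits, and the part of that unlikeness in its results was not tested. Nothing in the labels says that replicates came from separate cohorts of mice, so p-values measure the spread between these pools.

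The 6 genes and the gene lists were chosen with earlier results of these data known. Named from the lists were the genes called in either diet (at most 6 a list), Tyrobp, Syk, Lyn, Fgr, Inpp5d, Ptpn6, B2m and Trim21, and the 3 genes most like each receptor, with a mean TPM of at least 10. One gene of the list of ITAM adaptors and kinases is not reported here and was left out of its counts. Alternatives were DESeq2 1.42.0, limma 3.58.1 on log2(FPKM + 1) and log2(FPKM + 0.1), other scalings and filters, a replicate block, and each library left out. Sequences came from RefSeq and GENCODE annotation of GRCm38. Figures were drawn with matplotlib 3.10.9.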

Additional observations from a re-analysis of the deposited data

Results flagged for a closer look

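The difference between diets in the ARM minus SM log2 fold change drew attention for 3 genes. Fcgr1 was higher in both HFD ARM libraries than in both HFD SM libraries and lower in both ND ARM libraries than in both ND SM libraries, with a difference of 0.27 between the changes (adjusted p = 0.578 by edgeR). Tyrobp, the other ITAM adaptor of these cells, showed the same opposite order in FPKM, with a difference of 0.18 (adjusted p = 0.79 by edgeR), but in TPM its ND groups overlapped (1327 and 1353 TPM against 1346 and 1448 TPM). Neither difference passed the test. Sphk1 differed by -1.01 (adjusted p = 0.0082 by edgeR), since it rose in ND ARMs by 0.96 and not in HFD ARMs.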

How the results depend on the processing

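Under 15 alternatives in each diet, Fcgr4 stayed higher and Fcgrt lower in ARMs in each diet. In HFD mice the call of Fcgr4 was lost with limma on log2(FPKM + 1) without a filter (1.07, adjusted p = 0.0607) and that of Fcgrt with the same setting (-0.37, adjusted p = 0.0932) and on log2(FPKM + 0.1) (-0.37, adjusted p = 0.0711). The number of the 6 genes that passed went from 2 to 0 and 1 there, and the number higher by over 1.5-fold from 1 to 0. The cause was not tested.

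The replicate number as a block gave 0.44 for Fcgr4 and -0.25 for Fcgrt in ND mice, which then passed (adjusted p = 0.037 and 0.0208 by edgeR), so 2 of the 6 genes passed in place of 0. It moved all genes passing from 589 to 1459 in ND and from 22 to 187 for the difference between diets, and changed no other call of the 6. Of the other genes named, it also made Cd22 (0.92, adjusted p = 0.00272), Pecam1 (0.76, adjusted p = 0.000304), Src (0.78, adjusted p = 0.00626), Fyn (0.41, adjusted p = 0.0141), Lilrb4a (0.23, adjusted p = 0.0444) and Trim21 (-0.36, adjusted p = 0.037) pass in ND and Fgr (0.49, adjusted p = 0.00703) in HFD, where the call of Sirpa was lost (adjusted p = 0.0551), by edgeR. The labels do not say that the numbers pair samples, and deviations of same-numbered libraries correlated at -0.028 in HFD and 0.221 in ND.

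Over all genes, 1274 passed in HFD mice, against 226 without a filter, 586, 378 and 35 with limma on log2(FPKM + 1), on log2(FPKM + 0.1) and unfiltered, and 666 in one fit of all 8 libraries. Of these, 595 were higher by over 1.5-fold, against 167 without a filter, 290, 305 and 34 with the 3 limma fits and 922 at a log2 fold change over 0.6 and an unadjusted p under 0.05. In ND mice 589 passed, against 233, 55 and 0 with the 3 limma fits and 888 at that other threshold. For the difference between diets 22 passed, against 41 without a filter and 96 by DESeq2. The share of genes passing beside which the members stand thus varies with the method.

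Leaving out 1 library at a time gave 1 to 2 of the 6 genes passing in HFD and 0 to 1 in ND. Over all genes it gave 247 to 1415 passing (198 to 587 higher by over 1.5-fold) in HFD, lowest without the second ARM library, 202 to 763 in ND, lowest without the second ARM library, and 0 to 102 for the difference. Ranges were -0.44 to -0.36 for Fcgrt and -0.06 to 0.08 for Fcgr3 in HFD, and 0.14 to 0.77 for Fcgr4, -0.05 to 0.07 for Fcgr3 and -0.15 to 0.05 for Fcer1g in ND. The difference between diets of Fcgr3 was -0.02, 0.03 with library totals, 0.01 without a filter and -0.08 to 0.08 with libraries left out. Signs near 0 also turned for Inpp5d (-0.01 to 0.14), Ptpn6 (-0.02 to 0.04) and Syk (-0.13 to 0.04) in HFD, and for B2m (-0.04 to 0.07), Clec4n (-0.02 to 0.27), Fgr (-0.01 to 0.31), Inpp5d (-0.00 to 0.21), Myo10 (-0.20 to 0.62), Syk (-0.05 to 0.17) and Ceacam1 (-0.38 to 0.20) in ND. Between diets, CPM in place of FPKM turned Fcgr2b in SMs (0.11) and Fcgr3 in ARMs (0.09) and SMs (0.11). It also turned Fcer1g in ARMs (0.11) and SMs (0.00) and Fcgrt in SMs (0.07). In FPKM, the ratio of Fcgrt in SMs was -0.10, and -0.23 to 0.04 with libraries left out.

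Over all settings the number of genes passing went, in HFD, from 0 to 5 for ITAM adaptors and kinases, 0 to 9 for ITIM receptors, 0 to 5 for receptors pairing with Fcer1g, 0 to 9 for phagocytosis effectors and 0 to 4 for FcRn partners, and in ND from 0 to 2, 0 to 3, 0 to 4, 0 to 5 and 0 to 1. Inhibitory phosphatases reached 0 in HFD and at most 1 in ND, other Fc receptors 0 and at most 2. There were 2 pools a group, and 108 to 340 counts carry the Fcgr4 values.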
